A study of Mus musculus with 20 samples.

Results

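Haemoglobin and erythroid genes were followed across 20 bulk RNA libraries of mouse testis as a sign of how much blood the tissue RNA carried. The 9 genes were taken by symbol from the deposited count table: the adult alpha globins Hba-a1 and Hba-a2, the adult beta globins Hbb-bs and Hbb-bt, the haem enzyme gene Alas2, the blood group gene Rhd, the membrane genes Slc4a1 and Epb42, and the transcriptional repressor gene Gfi1b. All 9 were among the 22066 symbols of the table, and 7 of them passed the filter on low counts that left 16534 symbols to test. Hba-a2 and Epb42 did not pass it.

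Red blood cells carry haemoglobin, a tetramer of alpha and beta globin chains that each hold a haem group. They arise in bone marrow and, in mice, also in spleen. Circulating erythrocytes have no nucleus, and the RNA left in the youngest of them, the reticulocytes, is dominated by globin messages. In a solid tissue these messages come largely with the blood held in its vessels, while genes for red cell membrane proteins and haem enzymes can also be used by the cells of the tissue itself.

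All mice were males of the NSG strain, 6 weeks old at the start (NSG, or NOD scid gamma, lacks mature lymphocytes and accepts human cells). There were 5 groups of 4 libraries. Controls (NC) and engrafted mice without the drug (ALL) received saline. The ALL, Low-VCR and High-VCR mice carried a patient-derived xenograft of B-ALL, an acute leukaemia of human B-lymphocyte precursors, set up with 400000 cells through the tail vein, while the labels of the third treated group (VCR) name the drug and no leukaemia cells. Vincristine, a drug that binds tubulin, was given to the VCR, Low-VCR and High-VCR mice at 0.5 mg/kg into the peritoneum, weekly for 3 weeks from day 69 after engraftment began. The Low-VCR and High-VCR groups were set apart by the leukaemia infiltration of peripheral blood, a value measured after engraftment and not assigned. The labels do not say that each library came from a separate mouse, so the p-values measure the spread between libraries.

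Libraries held 9425158 to 16357287 counts, so that 3 counts, taken as the limit of detection, were worth 0.167 to 0.365 CPM (counts per 1000000 counts of a library, scaled by the trimmed mean of M values). The testis label was checked against markers, of which 24 of 24 spermatid genes and 22 of 22 Sertoli cell genes passed the filter. The cell make-up of the libraries moved with the drug: the summed spermatid genes lay at 27957 to 36136 CPM in the 8 libraries without vincristine and at 412 to 23773 CPM in the 12 with it. Mitochondrially encoded genes took 1.78 to 2.6% of counts without the drug and 4.69 to 11.9% with it. The part of these shifts in the results below was not tested, apart from the scalings described further on. The labels place all libraries in 1 batch, but library numbers ran from 1 to 8 in NC and VCR, and in the engrafted groups from 26 to 33 or in a range of higher numbers, so engraftment and library number cannot be told apart.

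The stretches of 250 bases before the transcription start of 6 of the genes are shown because the globins moved together and Gfi1b moved the other way, and because they hold short words read by red cell transcription factors. Sequences are from RefSeq on mouse build GRCm38.p6, 5′ to 3′ on the gene's strand. Capitals mark GATAAG (a word of GATA factors) and CACCC (a word of Krüppel-like factors) on either strand, the other strand reading CTTATC and GGGTG.
Hba-a1, chr11:32283422-32283671, + strand: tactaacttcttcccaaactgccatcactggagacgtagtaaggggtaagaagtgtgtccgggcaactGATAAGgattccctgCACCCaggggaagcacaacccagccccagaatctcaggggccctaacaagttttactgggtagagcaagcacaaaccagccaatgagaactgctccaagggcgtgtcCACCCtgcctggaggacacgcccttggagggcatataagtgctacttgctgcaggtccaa
Hbb-bs, chr7:103827929-103828178, - strand: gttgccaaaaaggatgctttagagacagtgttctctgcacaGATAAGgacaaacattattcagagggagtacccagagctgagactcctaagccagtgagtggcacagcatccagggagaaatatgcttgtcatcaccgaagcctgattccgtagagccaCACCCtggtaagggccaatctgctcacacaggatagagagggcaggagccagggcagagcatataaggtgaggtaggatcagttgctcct
Hbb-bt, chr7:103813924-103814173, - strand: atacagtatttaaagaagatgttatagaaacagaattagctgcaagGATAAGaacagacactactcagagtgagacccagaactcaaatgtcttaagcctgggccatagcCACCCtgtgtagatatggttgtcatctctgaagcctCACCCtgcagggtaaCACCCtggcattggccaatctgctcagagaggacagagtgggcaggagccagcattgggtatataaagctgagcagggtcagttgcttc
Alas2, chrX:150547167-150547416, + strand: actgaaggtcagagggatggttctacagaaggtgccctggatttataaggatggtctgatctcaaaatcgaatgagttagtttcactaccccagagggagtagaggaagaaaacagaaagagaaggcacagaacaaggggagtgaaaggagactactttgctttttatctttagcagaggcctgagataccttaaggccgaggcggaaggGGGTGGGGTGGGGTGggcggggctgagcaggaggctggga
Rhd, chr4:134864286-134864535, + strand: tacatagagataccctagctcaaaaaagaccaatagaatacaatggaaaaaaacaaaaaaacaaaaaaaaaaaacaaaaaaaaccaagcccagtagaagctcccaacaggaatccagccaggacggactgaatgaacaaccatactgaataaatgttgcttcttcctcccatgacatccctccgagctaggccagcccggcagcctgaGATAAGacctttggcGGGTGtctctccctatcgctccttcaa
Gfi1b, chr2:28621983-28622232, - strand: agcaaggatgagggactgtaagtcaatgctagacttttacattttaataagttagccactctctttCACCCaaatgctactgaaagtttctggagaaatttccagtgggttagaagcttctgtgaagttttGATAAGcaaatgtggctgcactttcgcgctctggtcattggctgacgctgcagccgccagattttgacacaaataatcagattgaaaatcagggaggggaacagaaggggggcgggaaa

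GATAAG was found in 7 of the 8 genes with an entry, Alas2 being the exception, and in 6.55% of 32841 RefSeq promoters of the same length. Only these exact letters were searched, so a GATA site in another form, before Alas2 or elsewhere, would be missed. The near copies Hba-a1 and Hba-a2 count separately among these genes. CACCC was found in 7 of 8, Epb42 being the exception, and in 52% of all promoters. The letters GATAAG stand 182 bases before the start of Hba-a1, 209 before Hbb-bs, 204 before Hbb-bt, 42 before Rhd and 119 before Gfi1b. They were thus present before genes that were higher after vincristine and before Gfi1b, which was lower. These are matches of letters and no evidence of a bound factor. Slc4a1 is named only. The Hba-a1 and Hba-a2 windows of 300 bases around the start share an unbroken stretch of 297 bases, so Hba-a2 is not printed.

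Globin messages were higher in every vincristine-treated library than in any library without the drug. Summed over the 4 adult globin genes, they stood at 54.0 ± 11.9 CPM in NC and 56.6 ± 18.6 CPM in ALL (mean ± SD, n = 4 each). The means of the treated groups were 410 ± 72.3 CPM for VCR, 246 ± 139 CPM for Low-VCR and 371 ± 205 CPM for High-VCR. The lowest treated library, Low-VCR 1, had 85.4 CPM and the highest untreated one, ALL 2, had 78.2 CPM. The VCR mean was 7.60 times the NC mean, the Low-VCR mean 4.35 times the ALL mean and the High-VCR mean 6.56 times the ALL mean. Even so, globins were a small part of the RNA, at 28.5 to 69.3 CPM before any scaling without the drug and 90.4 to 612 CPM with it. In bulk tissue, fewer or more cells of a type and less or more RNA per cell cannot be told apart.

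Hba-a1 encodes the alpha chain and was the most abundant globin message. Its level was 30.2, 46.2, 25.5 and 35.1 CPM in the 4 NC libraries and 36.1, 42.6, 18.4 and 31.9 CPM in ALL. In the treated groups it was 269, 276, 206 and 185 CPM in VCR, 49.1, 215, 107 and 191 CPM in Low-VCR, and 279, 64.9, 160 and 317 CPM in High-VCR. No treated library reached down to an untreated one, although Low-VCR 1 and High-VCR 2 came close. By edgeR's quasi-likelihood test with Benjamini-Hochberg adjustment over all 16534 symbols, Hba-a1 rose by 2.77 ± 0.47 on the log2 scale in VCR against NC (estimate ± SE, adjusted p = 4.78e-05), by 2.12 ± 0.46 in Low-VCR against ALL (adjusted p = 0.000999) and by 2.67 ± 0.47 in High-VCR against ALL (adjusted p = 7.83e-05). The last 2 comparisons share the ALL libraries.

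Hba-a2, the second adult alpha gene, had 19 counts in all libraries together against 36377 for Hba-a1. These were 5 counts in VCR 3, 3 in Low-VCR 2, 3 in High-VCR 3 and 8 in High-VCR 4, and the other 16 libraries were listed at 0. The genes are near copies: 67.5% of the 50-base windows of the Hba-a1 transcript also occur in Hba-a2, and 86.9% of those of Hba-a2 occur in Hba-a1. How reads matching both were counted is not given in the sources used here, so the division of alpha globin between the 2 genes is uncertain and their sum is the safer value.

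Hbb-bs, the beta globin message with the higher level, was measured at 10.8, 20.02, 16.5 and 14.8 CPM in NC and at 17.7, 27.5, 12.1 and 19.6 CPM in ALL. After vincristine it stood at 159, 162, 128 and 116.1 CPM in VCR, at 29.4, 131, 57.0 and 121 CPM in Low-VCR, and at 187, 46.0, 102.5 and 198 CPM in High-VCR. The treated and untreated libraries did not overlap, and the same 2 libraries, Low-VCR 1 and High-VCR 2, were the lowest of the treated. Hbb-bs rose by 3.18 ± 0.47 in VCR against NC (log2, edgeR adjusted p = 1.23e-05), by 2.13 ± 0.46 in Low-VCR against ALL (adjusted p = 0.000867) and by 2.79 ± 0.47 in High-VCR against ALL (adjusted p = 4.62e-05).

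Hbb-bt, the other adult beta gene, was at 5.24, 5.06, 3.78 and 2.701 CPM in NC and at 4.03, 8.10, 2.25 and 6.07 CPM in ALL. It was at 39.0, 37.0, 35.9 and 27.99 CPM in VCR, at 6.90, 37.9, 14.1 and 25.2 CPM in Low-VCR, and at 49.0, 9.54, 27.4 and 43.8 CPM in High-VCR. Low-VCR 1 lay below ALL 2, so these groups overlapped, while VCR and High-VCR did not overlap with their controls. Hbb-bt rose by 3.07 ± 0.54, 2.04 ± 0.52 and 2.67 ± 0.52 on the log2 scale in the 3 comparisons with the drug (edgeR adjusted p = 6.22e-05, 0.0035 and 0.000231). The beta genes also share sequence, with 65.8% of the 50-base windows of Hbb-bs found in Hbb-bt and 58.3% of those of Hbb-bt found in Hbb-bs.

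The balance between the globins moved less than their level. Summed globin ran from 32.7 to 559 CPM over the 20 libraries. The ratio of alpha to beta globin counts was 1.20 to 2.01 without the drug and 1.17 to 1.502 with it. By group it was 1.88, 1.84, 1.26 and 2.01 in NC, 1.20 to 1.66 in ALL and 1.26 to 1.39 in VCR. Most NC libraries thus lay above every treated one. Hbb-bt made up 15.5 to 32.6% of the beta counts without the drug and 17.2 to 22.5% with it. The wider ranges are those of the libraries with the fewer globin counts, 335 to 773 against 1238 to 10018. The part of counting error in this was not tested, and NC 4, with the ratio of 2.01, had 701 globin counts.

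**Figure D1:**
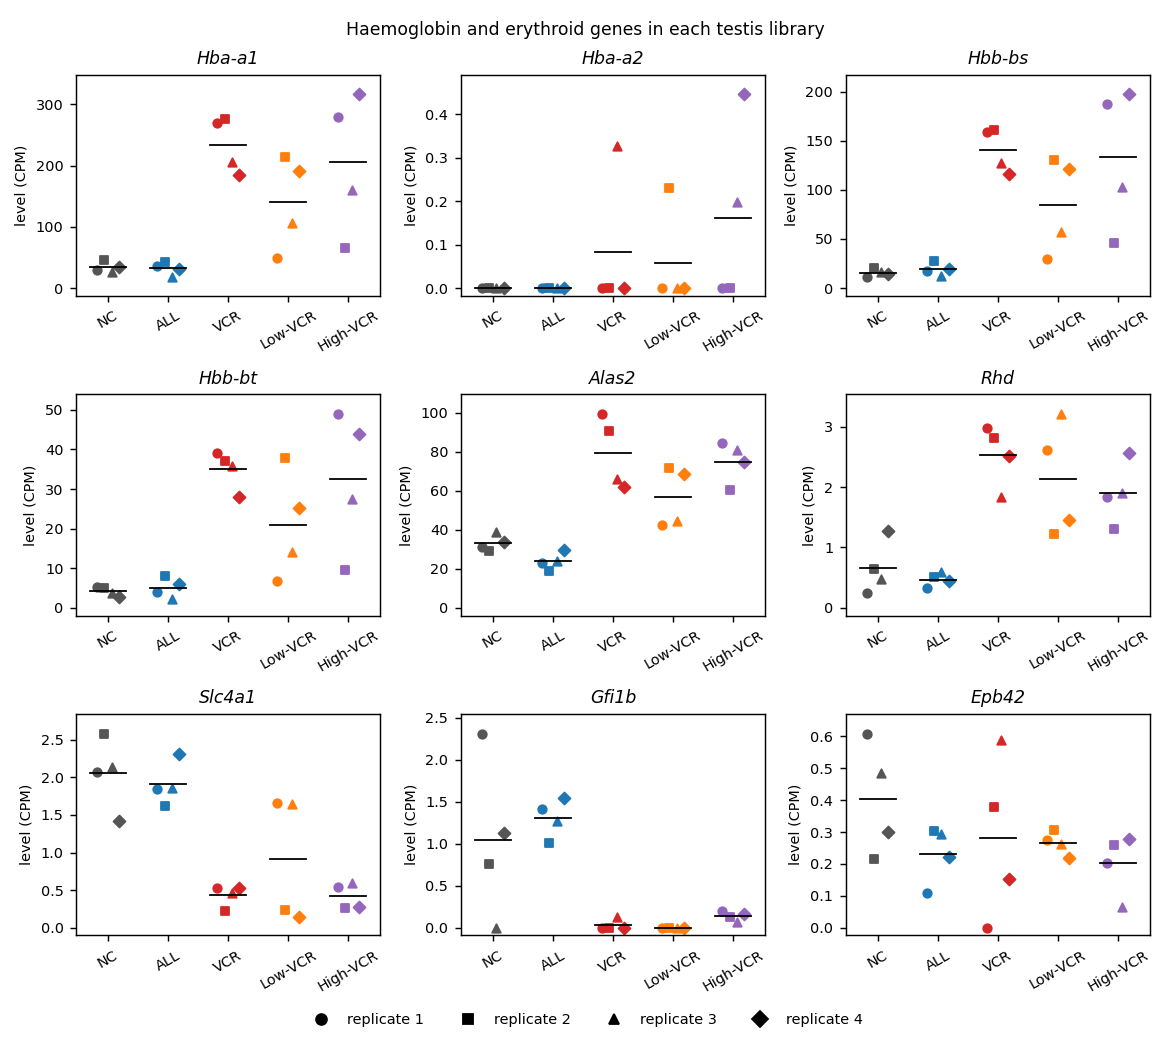
Level of each of the 9 genes (CPM, linear axis with its own range in each panel) in the 20 libraries, by group. Points are libraries, their shape is the replicate number, and the line is the mean of 4 libraries. The 3 measured globins, Alas2 and Rhd sit higher in the VCR, Low-VCR and High-VCR groups, Slc4a1 and Gfi1b sit lower there except for 2 Low-VCR libraries with Slc4a1 at 1.66 and 1.64 CPM, and Hba-a2 has counts in 4 libraries.

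Alas2 encodes the erythroid form of the first and rate-limiting enzyme of haem synthesis. It was at 31.4, 29.1, 38.8 and 33.8 CPM in NC and at 23.2, 19.1, 23.9 and 29.6 CPM in ALL. With the drug it was at 99.6, 90.7, 66.2 and 62.2 CPM in VCR, at 42.4, 71.8, 44.5 and 68.7 CPM in Low-VCR, and at 84.4, 60.2, 80.8 and 74.9 CPM in High-VCR. Every treated library stood above every untreated one. The rise was smaller than for the globins, at 1.26 ± 0.20 in VCR against NC, 1.25 ± 0.20 in Low-VCR against ALL and 1.65 ± 0.20 in High-VCR against ALL (log2, edgeR adjusted p = 2.36e-05, 6.23e-05 and 1.7e-06). Summed globin counts were 1.18 to 4.09 times the Alas2 counts without the drug and 2.00 to 7.46 times with it.

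Rhd encodes the mouse Rh blood group protein of the red cell membrane and was a low message. It was at 0.24, 0.65, 0.48 and 1.28 CPM in NC and at 0.33, 0.51, 0.59 and 0.44 CPM in ALL. It was at 2.97, 2.81, 1.84 and 2.51 CPM in VCR, at 2.62, 1.23, 3.21 and 1.45 CPM in Low-VCR, and at 1.83, 1.30, 1.91 and 2.57 CPM in High-VCR. No treated group overlapped with its own control group. Rhd rose by 1.85 ± 0.40, 2.17 ± 0.43 and 2.00 ± 0.43 on the log2 scale in VCR against NC, Low-VCR against ALL and High-VCR against ALL (edgeR adjusted p = 0.000442, 0.000403 and 0.000459).

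Slc4a1, which encodes band 3, the anion exchanger and main membrane protein of red cells, went the other way. It was at 2.07, 2.58, 2.13 and 1.43 CPM in NC and at 1.85, 1.62, 1.86 and 2.32 CPM in ALL. It was at 0.53, 0.23, 0.46 and 0.53 CPM in VCR, at 1.66, 0.23, 1.64 and 0.15 CPM in Low-VCR, and at 0.54, 0.26, 0.59 and 0.28 CPM in High-VCR. These treated levels rest on 7, 3, 7 and 7 counts in VCR, 24, 3, 25 and 2 in Low-VCR, and 8, 4, 9 and 5 in High-VCR. Some were thus at or below the limit of 3 counts. The VCR and High-VCR libraries all lay below their controls, while Low-VCR 1 and 3 lay among the ALL libraries. Slc4a1 fell by 2.19 ± 0.56 on the log2 scale in VCR against NC (edgeR adjusted p = 0.00177) and by 2.18 ± 0.56 in High-VCR against ALL (adjusted p = 0.00212). In Low-VCR against ALL the change was -1.03 ± 0.52 (adjusted p = 0.0989), and without Low-VCR 1 or without Low-VCR 3 it passed the threshold, with changes down to -1.46 and adjusted p down to 0.0406.

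Gfi1b, a repressor needed for the making of red cells and platelets, had few counts and nearly all of them in untreated libraries. It had 19, 7, 0 and 15 counts in NC and 13, 10, 13 and 14 in ALL. It had 0, 0, 2 and 0 counts in VCR, 0 in all 4 Low-VCR libraries, and 3, 2, 1 and 3 in High-VCR. NC 3 was at 0 as well, so NC and VCR overlapped, while the other treated groups lay below every ALL library. Gfi1b fell in all 3 comparisons with the drug (edgeR adjusted p = 0.000919, 0.00028 and 0.0028). Summed over a group and scaled by depth, NC held 27.3 times the Gfi1b counts of VCR (95% counting interval 7.08 to 233, from 41 and 2 counts), ALL held 9.16 times those of High-VCR (4.46 to 21.2, from 50 and 9 counts), and Low-VCR was at least 24.6-fold lower than ALL, taking 3 counts over the group as its limit. Both VCR counts were in VCR 3, and without it VCR held 0 counts in 3 libraries and was at least 13.1-fold lower than NC by the same limit. Leaving out 1 library of NC or VCR at a time gave adjusted p of 3.87e-05 to 0.00375. These intervals cover counting error only.

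Epb42, which encodes protein 4.2, a red cell protein bound to band 3, had 0 to 9 counts per library. The groups without the drug held 16 (NC) and 9 (ALL) counts in sum and the treated ones 16 (VCR), 15 (Low-VCR) and 13 (High-VCR), and all groups overlapped. With no filter on low counts its adjusted p in the 3 drug comparisons was 0.498, 0.861 and 0.76 by edgeR, so no difference was detectable at this depth.

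In VCR against NC, 5 of the 7 tested genes were called higher (Hba-a1, Hbb-bs, Hbb-bt, Alas2 and Rhd) and 2 lower (Slc4a1 and Gfi1b), in a comparison that called 42.1% of all tested symbols higher and 35.6% lower. In Low-VCR against ALL, 5 were called higher and 1 lower, where 36.4% of all tested symbols were higher and 15.2% lower. In High-VCR against ALL, 5 were higher and 2 lower, where 42.4% were higher and 30.5% lower. Being called was common among all genes in these comparisons. The median log2 change of the 7 genes was 1.85, 2.04 and 2.00 in the 3 comparisons, against 0.10, 0.08 and 0.16 over all tested symbols.

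Engraftment alone gave no call among the 7 genes. In ALL against NC, 0 of all 16534 symbols, or 0%, passed the threshold by edgeR, 748 had an unadjusted p under 0.05, and Alas2 was the 1 member among them, with a change of -0.48 ± 0.20 (unadjusted p = 0.0294, adjusted p = 1). Neither DESeq2 nor limma called any of the 7 genes in this comparison. The summed globin mean in ALL was 1.05 times that in NC.

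In the fit of all 5 groups, no member differed between the treated groups past the threshold. For the measured globins and Alas2 the order of the means was VCR, High-VCR, Low-VCR, and then the untreated groups, and for Rhd it was VCR, Low-VCR and High-VCR. In High-VCR against Low-VCR, where 7.81% of all tested symbols were called, 0 of the 7 genes were, with changes of 0.55 ± 0.44 for Hba-a1, 0.66 ± 0.43 for Hbb-bs, 0.63 ± 0.48 for Hbb-bt, 0.40 ± 0.20 for Alas2, -0.16 ± 0.36 for Rhd and -1.15 ± 0.56 for Slc4a1 (log2, edgeR adjusted p from 0.122 over the 7). Gfi1b had 9 counts in High-VCR and 0 in Low-VCR and had the smallest adjusted p of the 7 there, and with the range of library numbers as a term it was called higher in High-VCR. In Low-VCR against VCR, where 30.2% were called, 0 of the 7 were, with -0.74 ± 0.44 for Hba-a1, -0.74 ± 0.43 for Hbb-bs, -0.74 ± 0.48 for Hbb-bt, -0.49 ± 0.20 for Alas2, -0.24 ± 0.35 for Rhd and 1.07 ± 0.57 for Slc4a1 (adjusted p from 0.0676 over the 7), and with 0 and 2 counts of Gfi1b. Alas2 passed the threshold there without VCR 3, VCR 4 or Low-VCR 4 (changes of -0.59 to -0.36 and adjusted p of 0.0395 to 0.216 when 1 library was left out), and Slc4a1 was called higher without Low-VCR 4. High-VCR against VCR called 0 of 7 as well (adjusted p from 0.777), and 0.00605% of all symbols. The difference between the response in engrafted and in other mice, tested as an interaction, was called for 0 of the 7 genes with Low-VCR (5.07% of all symbols called, adjusted p from 0.292 over the 7) and for 0 of the 7 with High-VCR (0.00605% called, adjusted p from 0.97). At an unadjusted p under 0.05 the members called were 1 in High-VCR against Low-VCR, 1 in Low-VCR against VCR and 0 in High-VCR against VCR and in both interactions.

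Within the 2 ranges of library numbers of the engrafted groups, with 2 libraries per group in each, the summed globin level of Low-VCR was 3.44 times that of ALL among numbers 26 to 33 and 5.71 times in the higher range. That of High-VCR was 4.67 and 9.40 times that of ALL. With the range as a term in the fit, the members called in both comparisons with ALL were the same in number and direction, 5 higher and 1 lower for Low-VCR and 5 higher and 2 lower for High-VCR. The share of all symbols called in that fit was not computed. In the fit of all 5 groups it was 36.4% higher and 15.2% lower for Low-VCR, and 42.4% and 30.5% for High-VCR.

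The treated engrafted libraries differed widely among themselves, and the genes did not vary as 1 set. In Low-VCR, libraries 1 and 3 had 85.4 and 178 CPM of summed globin and libraries 2 and 4 had 383 and 338 CPM. Alas2 was likewise lower in libraries 1 and 3 than in 2 and 4, whereas Rhd and Slc4a1 were higher in 1 and 3. The same 2 libraries, 1 and 3, had the lower summed spermatid level, 16740 and 14324 CPM against 23773 and 22322 CPM. The order was the reverse in High-VCR. There libraries 1 and 4, with the highest summed globin, had the lower spermatid sums, 9844 and 11676 CPM. High-VCR 2 and 3 had spermatid sums of 16523 and 18946 CPM. In High-VCR, library 2 stood at 120 CPM of summed globin and the others at 515, 290 and 559 CPM, and this library also had the lowest summed endothelial level of its group, 239 CPM against 355 to 476 CPM. The same did not hold in Low-VCR, where library 2 had the highest summed globin and the lowest summed endothelial level, 225 CPM against 245 to 273 CPM.

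After each group's mean was taken away, the log2 level of Alas2 over the 20 libraries followed that of the summed globins with r = 0.54, Rhd with r = -0.05, Slc4a1 with r = -0.45 and Gfi1b with r = 0.06. These values are a description, given with no p, over libraries that share a scaling. The genes outside the list with the highest such r were Uap1l1 (0.838), Fhit (0.83), Commd4 (0.824), Bnip5 (0.818), Nr0b1 (0.815), Jam3 (0.813), Eda (0.809) and Ano8 (0.807). Eda was listed at 0 counts in all 8 untreated libraries, and its r rests on the treated ones. By the same measure Alas2 ranked at 1700 of 16534.

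Endothelial, Sertoli and most macrophage genes were higher with the drug, as the globins were, and spermatid genes were lower. Fewer spermatid genes were called in the engrafted groups. In Low-VCR against ALL 10 of 15 endothelial genes were called higher and 7 of 24 spermatid genes lower (36.4% and 15.2% of all symbols). In High-VCR against ALL 13 endothelial genes were higher and 15 spermatid genes lower (42.4% and 30.5% of all symbols). None of either list was called in the other direction. The counts of called genes below are for VCR against NC, where 42.1% of all tested symbols were higher and 35.6% lower. The summed level of 15 endothelial genes, which mark the vessel wall, was 83.5 to 92.6 CPM in NC and 98.0 to 107 CPM in ALL. With the drug it was 332 to 521 CPM for VCR, 225 to 273 CPM for Low-VCR and 239 to 476 CPM for High-VCR. Of these 15 genes, 13 were called higher and 0 lower in VCR against NC, among them Ly6e (log2 change 4.54 ± 0.34, edgeR adjusted p = 2.98e-08) and Kdr, a receptor for vascular endothelial growth factor (3.18 ± 0.24, adjusted p = 3.1e-08), with a median of 2.07. Ly6e, which cells other than endothelium also use, made up 145 ± 48.2 CPM of the VCR sum and 6.22 ± 1.46 CPM of the NC sum, and without it the mean sum of the other 14 genes was 83.5 ± 4.45 CPM in NC and 286 ± 61.4 CPM in VCR, a ratio of 3.42 in place of 4.80. Flt1, another endothelial receptor gene for the same growth factor, was at 7.15 ± 1.40 CPM in NC and 6.03 ± 1.18 CPM in VCR. Of 22 Sertoli genes, which mark the supporting cells of the seminiferous tubule, 20 were higher and 0 lower with a median of 1.92, among them Shbg (2.82 ± 0.22, adjusted p = 3.46e-08) and the inhibin gene Inha (2.19 ± 0.19, adjusted p = 4.25e-08). Of 12 macrophage genes, 10 were higher and 1 lower, with a median of 3.06, a summed level of 239 to 260 CPM in NC and 778 to 1218 CPM in VCR, and Lyz2 (3.56 ± 0.24) and the complement gene C1qa (3.23 ± 0.23), both at an adjusted p of 2.87e-08, as examples. Of 24 spermatid genes 0 were higher and 24 lower, with a median of -2.42, among them the sperm calcium channel genes Catsper1 (-3.83 ± 0.46, adjusted p = 1.23e-06) and Catsper3 (-4.66 ± 0.61, adjusted p = 3.12e-06).

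**Figure D2:**
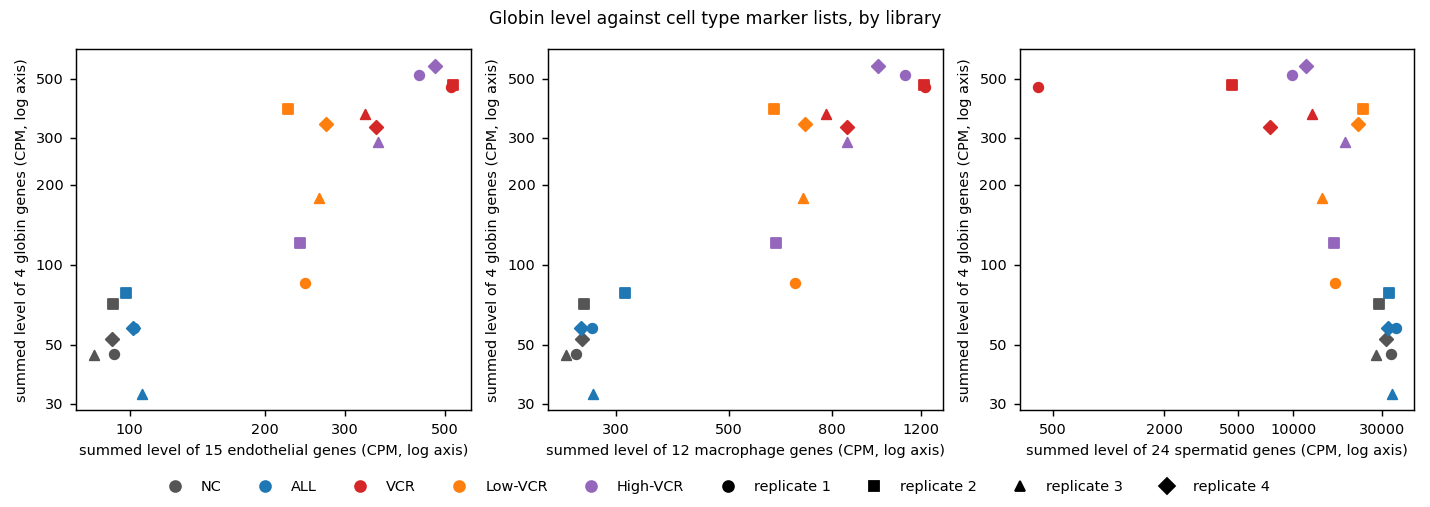
Summed level of the 4 adult globin genes in each library against the summed level of 15 endothelial, 12 macrophage and 24 spermatid genes (CPM, both axes logarithmic). Colour is the group and shape the replicate number. Untreated libraries lie at 32.7 to 78.2 CPM of globin with endothelial sums of at most 107 CPM, and treated ones at 85.4 to 559 CPM with endothelial sums of at least 225 CPM.

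Set against vessel wall genes, the globins differed less between the groups. The ratio of summed globin to summed endothelial level was 0.500 to 0.777 in NC, 0.306 to 0.799 in ALL and 0.903 to 1.11 in VCR. It was 0.349, 1.71, 0.677 and 1.24 in the Low-VCR libraries and 1.17, 0.504, 0.816 and 1.18 in High-VCR. All VCR libraries lay above all NC libraries, whereas Low-VCR and High-VCR overlapped with ALL. Without Ly6e, an alternative chosen after seeing the data, the ratio was 0.526 to 0.852 in NC and 0.322 to 0.865 in ALL. It was then 1.29 to 1.69 for VCR, 0.492 to 2.33 for Low-VCR and 0.667 to 1.89 for High-VCR, with the same groups overlapping.

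The same was tested by scaling all libraries so that the mean log count of the endothelial genes, or of the Sertoli genes, was level. This moved the median change of all tested symbols in VCR against NC from 0.10 to -2.28 with the endothelial and to -1.62 with the Sertoli scaling. The lists were level in their mean and not gene by gene. The endothelial list's own median change in VCR against NC was -0.37 with the endothelial scaling. That of the Sertoli list was 0.16 with the Sertoli scaling. With the endothelial scaling, 0 of the 7 genes were called higher in any of the 3 drug comparisons (background 2.66%, 5.01% and 4.86% of all symbols) and 3, 2 and 2 were called lower in VCR against NC, Low-VCR against ALL and High-VCR against ALL (background 82.9%, 69.5% and 73.9%), and Hbb-bs, which had the largest rise of the members in VCR against NC with the scaling on all genes, was at 0.76 ± 0.42 (edgeR adjusted p = 0.1). With Ly6e left out of this scaling, an alternative chosen after seeing the data, 0 members were again called higher in the 3 comparisons (background 3.26%, 6.36% and 6.41%) and 3, 2 and 2 lower (background 80% in VCR against NC, 66.1% in Low-VCR against ALL and 71% in High-VCR against ALL), with Hbb-bs at 0.91 ± 0.43 in VCR against NC (adjusted p = 0.0603). With the Sertoli scaling, Hba-a1 (1.03 ± 0.38, adjusted p = 0.0182), Hbb-bs (1.45 ± 0.38, adjusted p = 0.00185) and Hbb-bt (1.33 ± 0.46, adjusted p = 0.0134) were still called higher in VCR against NC, where 9.62% of all symbols were. In Low-VCR against ALL 0 were called higher with it, of 4.4% of all symbols, and in High-VCR against ALL 1 was (Hbb-bs, 0.89 ± 0.37, adjusted p = 0.037), of 6.67%. The members called lower with the Sertoli scaling were 3, 2 and 2 in these comparisons, where 72.9%, 74.4% and 74.3% of all symbols were lower.

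The sign of the Alas2 change depended on the scaling. In VCR against NC it was called lower at -0.51 ± 0.17 with the Sertoli scaling (edgeR adjusted p = 0.0112) and at -1.18 ± 0.25 with the endothelial scaling (adjusted p = 0.000238). These scalings moved all symbols down, and relative to the median of all tested symbols Alas2 was at 1.16 with the scaling on all genes, 1.11 with the Sertoli and 1.099 with the endothelial scaling. Rhd was at 0.14 ± 0.37 and -0.57 ± 0.39 there, neither called (adjusted p = 0.883 and 0.181). Slc4a1 and Gfi1b remained lower under all 3 scalings in VCR against NC and High-VCR against ALL. Slc4a1 in Low-VCR against ALL was called with both cell-type scalings, at -2.55 ± 0.55 and -2.48 ± 0.53 (adjusted p = 0.000426 and 0.00051).

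**Figure D3:**
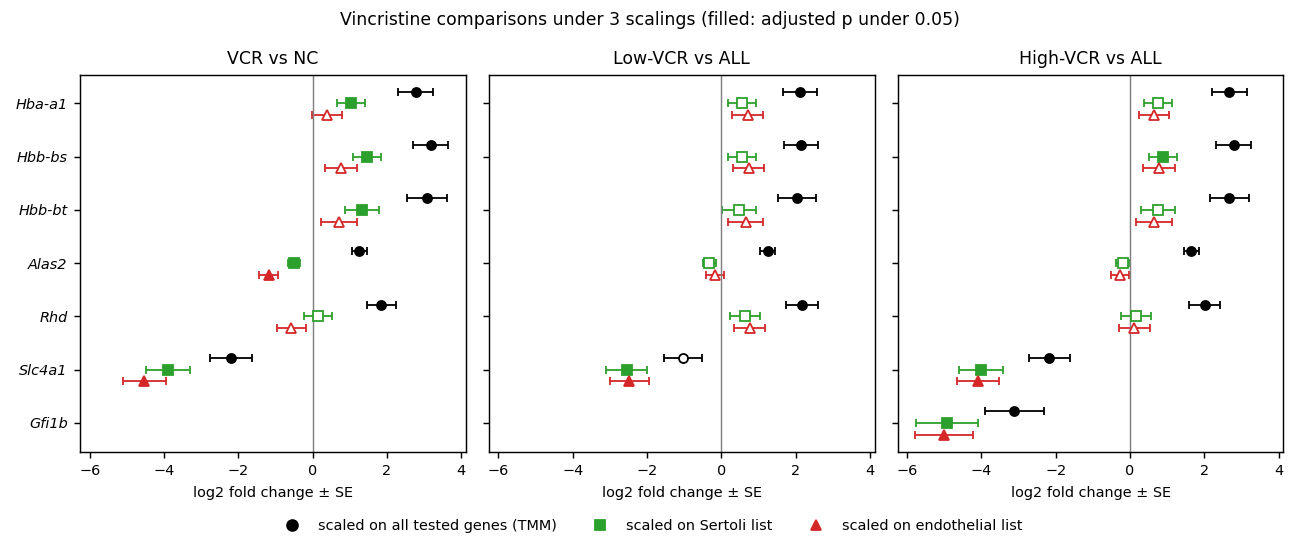
Log2 fold change ± SE of the tested genes in the 3 drug comparisons with libraries scaled on all tested genes, on the Sertoli list or on the endothelial list. Filled symbols passed an edgeR adjusted p of 0.05. The globins shrink to between 0.38 and 0.78 with the endothelial scaling and none is called, and Alas2 crosses 0. Gfi1b is not drawn for VCR against NC or Low-VCR against ALL, where the treated group had 2 and 0 counts.

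Per kilobase of exon, which allows levels of different genes to be compared, the mean level in NC was 42.2 CPM for Hba-a1, 20.2 for Hbb-bs, 13.8 for Alas2 and 5.97 for Hbb-bt. The remaining tested members were below 1, at 0.573 for Gfi1b, 0.420 for Slc4a1 and 0.416 for Rhd. In untreated testis the Alas2 level thus lay between those of the beta globins. In VCR the order was Hba-a1 at 288, Hbb-bs at 184, Hbb-bt at 49.7 and Alas2 at 33.2 CPM per kilobase, followed by Rhd at 1.59, Slc4a1 at 0.0896 and Gfi1b at 0.0179. Exon lengths are those of GENCODE vM21 and not of the build the reads were counted on.

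Other red cell genes changed in both directions. Of 25 further erythroid genes 24 were in the table and 16 passed the filter. Of these 4 were called higher and 8 lower in VCR against NC, where 42.1% of all tested symbols were higher and 35.6% lower. Their median log2 change was -1.35 against 0.10 over all symbols. Sptb, which encodes a spectrin of the membrane skeleton, rose by 2.14 ± 0.25 (14.3 ± 2.46 CPM in NC, 63.1 ± 12.2 in VCR, edgeR adjusted p = 8.18e-07). Gata1, a transcription factor of red cells that mouse Sertoli cells also use, rose by 1.96 ± 0.19 (adjusted p = 9.39e-08). The mitochondrial iron importer gene Slc25a37 fell by 1.96 ± 0.25 (adjusted p = 2.09e-06), Bpgm, which makes the phosphate that loosens oxygen from haemoglobin, by 1.63 ± 0.21 (adjusted p = 2.43e-06), and the actin-capping gene Tmod1 by 2.24 ± 0.31 (adjusted p = 4.76e-06). In Low-VCR against ALL 2 of the 16 were higher and 5 lower (36.4% and 15.2% of all symbols). In High-VCR against ALL 2 were higher and 7 lower (42.4% and 30.5% of all symbols). With the Sertoli and endothelial scalings the median in VCR against NC was -3.05 and -3.70, Gata1 was at 0.20 and -0.48, and Sptb at 0.40 and -0.25, against medians of all symbols of -1.62 and -2.28.

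The embryonic and minor globins were close to absent. Hba-x, Hbb-bh1 and Hbq1a were listed at 0 in all libraries, and none of the 6 further globin genes in the table passed the filter. Among red cell genes of low level, Tspo2 was listed at 0 throughout.

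Haem synthesis genes, which all cells use, mostly rose, but their summed level did not. The mean sum in VCR was 0.964 times that in NC. Those in Low-VCR and High-VCR were 0.966 and 0.923 times that in ALL. Of 12, 8 were called higher and 1 lower in VCR against NC with a median of 1.33, 7 and 1 in Low-VCR against ALL (median 0.81), and 8 and 1 in High-VCR against ALL (median 1.13). The shares over all tested symbols were 42.1%, 36.4% and 42.4% higher and 35.6%, 15.2% and 30.5% lower. Urod, which encodes an enzyme of the middle of the pathway, rose by 1.37 ± 0.13 in VCR against NC (20.7 ± 0.80 CPM in NC, 53.4 ± 9.75 in VCR, edgeR adjusted p = 9.26e-08). Under the Sertoli and endothelial scalings the median of the 12 was -0.41 and -1.06, and Urod was at -0.38 and -1.04, where the median of all symbols was -1.62 and -2.28. Relative to that median the 12 stood at 1.24 with the scaling on all genes, 1.21 with the Sertoli and 1.22 with the endothelial scaling.

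Most genes that take up haemoglobin, break down haem and export iron rose. Of 13, 12 were called higher and 0 lower in VCR against NC (median 1.91). In Low-VCR against ALL 11 and 0 were called (median 1.62), and in High-VCR against ALL 12 and 0 (median 2.01). Over all tested symbols the shares were 42.1%, 36.4% and 42.4% higher and 35.6%, 15.2% and 30.5% lower. Hp, which encodes the haemoglobin-binding plasma protein haptoglobin, was not called in any of the 3 (adjusted p = 0.23, 0.106 and 0.0775), and Cd163, a macrophage receptor for haemoglobin bound to haptoglobin, was not called in Low-VCR against ALL (adjusted p = 0.146). The 2 of smallest adjusted p were Slc40a1, the iron exporter ferroportin (2.36 ± 0.48 CPM in NC, 18.5 ± 4.98 in VCR, log2 change 2.97 ± 0.24, edgeR adjusted p = 3.65e-08), and Lrp1, a receptor that takes up haem bound to haemopexin among many other ligands (2.62 ± 0.24, adjusted p = 6.27e-08). Macrophages, whose markers rose too, use several of these genes, and the part of macrophage number in these changes was not tested. With the Sertoli and endothelial scalings the median in VCR against NC was 0.14 and -0.53, or 1.76 and 1.75 relative to the median of all symbols, against 1.81 with the scaling on all genes.

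**Figure D4:**
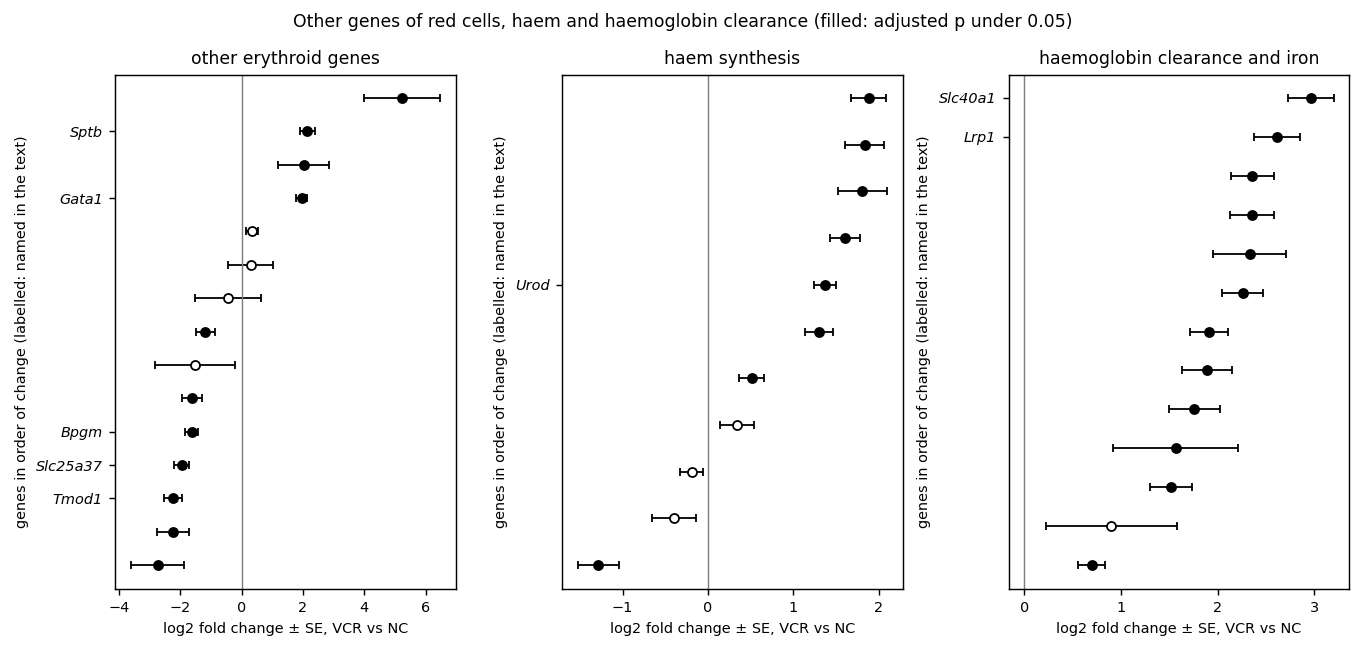
Log2 fold change ± SE in VCR against NC of other erythroid genes, haem synthesis genes and genes of haemoglobin clearance and iron that passed the filter on low counts, without genes not reported here and in order of their change. Gene names are given for those named in the text. Filled points passed an edgeR adjusted p of 0.05. Called genes of the left panel lie on both sides of 0, most haem synthesis genes and all called clearance genes lie above it.

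Markers of other blood cells were low throughout. Their counts of called genes are for VCR against NC, where 42.1% of all tested symbols were higher and 35.6% lower. Of 14 platelet and megakaryocyte genes 6 passed the filter, and 1 was higher and 1 lower in VCR against NC (median 0.24): Pf4, platelet factor 4, which mouse tissue macrophages also express, rose by 3.38 ± 0.38 (1.07 ± 0.44 CPM in NC, 11.1 ± 3.16 in VCR, edgeR adjusted p = 5.13e-07), and Nrgn, which neurons share with platelets, fell by 3.14 ± 0.41 (adjusted p = 2.98e-06). Ppbp, an abundant platelet message, had 2 counts over the untreated and 17 over the treated libraries. Of 12 neutrophil genes 3 passed, and 2 were higher and 0 lower (median 1.53): the granule peptide gene Camp (2.61 ± 0.38, adjusted p = 9.03e-06) and the growth factor receptor gene Csf3r (1.53 ± 0.26, adjusted p = 3.84e-05), the latter at -0.19 and -0.87 under the Sertoli and endothelial scalings, which is 1.43 and 1.41 relative to the median of all symbols. S100a8 and S100a9, the most abundant messages of mouse neutrophils, had 0 and 2 counts over the untreated and 22 and 26 over the treated libraries. The summed neutrophil level was 3.39 to 4.50 CPM in NC and 9.28 to 14.8 CPM in VCR, and that of platelet genes 27.6 to 32.3 and 34.6 to 50.2 CPM. The mean platelet sum was 29.2 CPM in NC and 41.7 CPM in VCR, and Pf4 made up most of this difference.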

How the data were processed

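Poly(A) RNA of frozen testis was sequenced from stranded libraries, per the labels' protocols. The submitters' processing notes name build GRCm39 and the tools STAR 2.7.10b, Trimmomatic 0.39, DESeq2 1.36.0 and featureCounts (Subread 2.0.3). The deposited table holds whole-number counts per gene symbol, which the authors had not normalized. Not given in the sources used here are the strand setting and the treatment of reads matching several genes.

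The tests used edgeR 4.0.16 (R 4.3.3): a filter on low counts (minimum 10), TMM scaling, and a robust quasi-likelihood fit of 5 group means over all 20 libraries. P-values were adjusted by Benjamini-Hochberg over the 16534 symbols tested, with a threshold of 0.05. The common biological variation was 29.8%. Alternatives used limma 3.58.1, DESeq2 1.42.0, other scalings and other filters. The steps were tested on simulated data in which few genes changed. That test does not cover comparisons such as those with the drug here, where most symbols were called. Levels are CPM on TMM-scaled library sizes, and limits from 3 counts and 95% intervals cover counting error only, since reads carry no molecular identifiers.

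The members and gene lists were chosen with earlier results of these data known. Besides the 9 members, the genes named are the up to 6 called genes of smallest adjusted p in VCR against NC of the other globin and erythroid lists, the 2 of smallest adjusted p of each other list, and the 8 most like the summed globins. A few genes that this rule or the lists hold are not reported here, but stay in the lists' counts and medians. Promoters came from RefSeq (GRCm38.p6). As that build differs from that of the counts, no gene positions are given for the counts.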

Additional observations from a re-analysis of the deposited data

Results flagged for a closer look

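Of 47 sets of 4 libraries examined for 1 library far from its group, in the 9 genes and their globin sum, 3 were marked, and chance marks about 1 in 20. Each is 1 library with a few counts in a group otherwise at 0. In such a group the rule marks any count, so the rate of 1 in 20 does not apply to these marks. Hba-a2 was at 0.328 CPM (5 counts) in VCR 3 and at 0.230 CPM (3 counts) in Low-VCR 2. Gfi1b was at 0.131 CPM (2 counts) in VCR 3.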

How the results depend on the processing

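Of the 34 member fold changes, all kept direction and side of the threshold with DESeq2 size factors, with TMM computed without the members and mitochondrial genes, with no filter, with a filter at 1 CPM in 4 samples, and with the replicate block. With the block, 5 members were called higher and 2 lower in VCR against NC, and Hba-a1 changed by 2.81. Libraries of the same replicate number did not deviate together (correlations -0.572 to 0.699, and 3 of 20 libraries correlated best with their own number), so the numbers were not taken as pairs. In Low-VCR against VCR, 1 member (Alas2) was called lower with library size alone, with upper-quartile scaling and with the DESeq2 Wald test. In Low-VCR against ALL, 2 were lower with DESeq2 and with limma voom, Slc4a1 being added. With only the 2 groups compared, 1 was lower in VCR against NC, since Gfi1b was not tested there. With library number range as a term, 1 (Gfi1b) was higher in High-VCR against Low-VCR. The cell-type scalings moved most. Members called higher with the Sertoli scaling were 3 in VCR against NC, 0 in Low-VCR against ALL and 1 in High-VCR against ALL, and 2 were lower in Low-VCR against ALL. With the endothelial scaling 0, 0 and 0 were higher, 2 were lower in Low-VCR against ALL, 1 (Slc4a1) was higher in Low-VCR against VCR, and 2 (Alas2 and Slc4a1) were higher in the interaction with Low-VCR. Without Ly6e in that scaling, an alternative chosen after seeing the data, these counts were the same, at 0, 0, 0, 2, 1 and 2. The endothelial scaling moved the median change of all tested symbols to 0.63 in Low-VCR against VCR and to 0.99 in the interaction with Low-VCR. The share of all symbols called in these 2 contrasts with that scaling was not computed. Under the Sertoli scaling Alas2 turned to -0.51, -0.32 and -0.19 in VCR against NC, Low-VCR against ALL and High-VCR against ALL, Rhd to 0.068 in Low-VCR against VCR, and Urod and Csf3r to -0.38 and -0.19 in VCR against NC. Under the endothelial scaling Alas2 turned to -1.18, -0.18 and -0.27 in the same comparisons, to 0.25 in Low-VCR against VCR (Rhd to 0.45) and to -0.10 in High-VCR against Low-VCR, where Hba-a1 and Hbb-bt turned to -0.066 and -0.0069. In VCR against NC, Rhd, Gata1, Sptb, Urod, Csf3r and Inha turned to -0.57, -0.48, -0.25, -1.04, -0.87 and -0.23 there. Without Ly6e in the scaling these 6 were at -0.43, -0.33, -0.11, -0.89, -0.73 and -0.081, Alas2 at -1.04, -0.051 and -0.13 in the 3 drug comparisons and 0.22 in Low-VCR against VCR (Rhd 0.43), and Alas2 and Hba-a1 at -0.078 and -0.036 in High-VCR against Low-VCR. The cause was not tested. Leaving out 1 library at a time, members called lower in Low-VCR against ALL ranged from 1 to 2 (2 without Low-VCR 1 or 3). In Low-VCR against VCR, those called higher ranged from 0 to 1 (1 without Low-VCR 4) and those called lower from 0 to 1 (Alas2, without VCR 3, VCR 4 or Low-VCR 4). Rhd in High-VCR against Low-VCR ranged from -0.45 to 0.10, above 0 without Low-VCR 3. Alpha or beta globins alone gave ratios of means within the spread of the summed level. Depth limits Gfi1b, Epb42, Hba-a2, Slc4a1 and Rhd.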
